A study of Danio rerio with 10 samples.

Results

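The immediate early transcription factors described here are fosab, fosb, jun, junba, junbb, atf3, egr1, egr2b, nr4a1 and ier2b, 10 of the 32265 genes in the deposited zebrafish gene tables. They were chosen by name, and 9 were found under these names. ier2b was found by its gene identifier ENSDARG00000086881, which the tables list as CR855274.1. All 10 were measured, and none was left out of the values below.

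Immediate early genes are transcribed within minutes of a stimulus, without any need for new protein synthesis, because the factors that switch them on (SRF with its ternary complex partners, and CREB) already sit in the cell and are activated by kinases or calcium. Their own products are mostly transcription factors, which pass the signal on to later genes, and their transcripts are short-lived. In skeletal muscle they are known to respond to contraction, stretch, injury and cell isolation.

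The fish were of the AB strain and all carried a human tropomyosin 3 transgene under the muscle promoter MLC2, with a heart marker that drives EGFP from myl7. Tropomyosin 3 is a thin filament protein of slow muscle fibres. The groups were TPM3(E151A), TPM3(E151G) and TPM3(WT), so the fish called WT also carried the human gene. Its expression was not checked here. Adult muscle was taken at 6 months, with 2 libraries per genotype, which the tables give as 1 combined value. Embryos, labelled as whole embryos of 2 days though the study's text speaks of muscle from embryos, had 1 library each for TPM3(E151A), TPM3(E151G) treated with l-carnitine, TPM3(E151G) untreated and TPM3(WT). l-carnitine carries fatty acids into mitochondria. The treatment described in the labels ran from 28 hours to 7 days after fertilization, which is later than the stated age of these embryos, and the exact age of the treated library is therefore not settled. The question was how gene activity differed between the mutant lines and TPM3(WT), and between treated and untreated TPM3(E151G) embryos.

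Values are FPKM, fragments per kilobase of gene, scaled by the size of the library. No genotype had more than 1 value, so there is no SD and no test, and read depth was not given. Values of a pair of conditions are set against each other as the log2 ratio of FPKM + 1, for genes with at least 1 FPKM in 1 or both conditions, and a gene is counted as higher or lower when the ratio is 2-fold or more.

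The adult tables differed in more than the genes described here. In units of 1000 FPKM, all genes summed to 759.4 in TPM3(E151A), 1404 in TPM3(E151G) and 712.3 in TPM3(WT), of which genes of the mitochondrial genome made up 36.2% in TPM3(E151A), 47.6% in TPM3(E151G) and 25.9% in TPM3(WT). All 10 skeletal muscle markers were above 1 FPKM in every condition. Markers of other tissues were also present in adult muscle: the 6 oocyte markers summed to 531 FPKM in TPM3(E151A), 368 FPKM in TPM3(E151G) and 2194 FPKM in TPM3(WT), and the 5 testis markers to 121 FPKM in TPM3(E151A), 3.10 FPKM in TPM3(E151G) and 13.0 FPKM in TPM3(WT). In embryos the sums lay between 575.4 and 739.9 in the same units and the mitochondrial share between 13.1% and 15.4%, and every oocyte and testis marker was below 1 FPKM. Skin markers summed to between 5813 and 8006 FPKM and neuronal markers to between 485 and 629 FPKM in the embryo libraries, and which material they were made from is not settled.

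**Figure D1:**
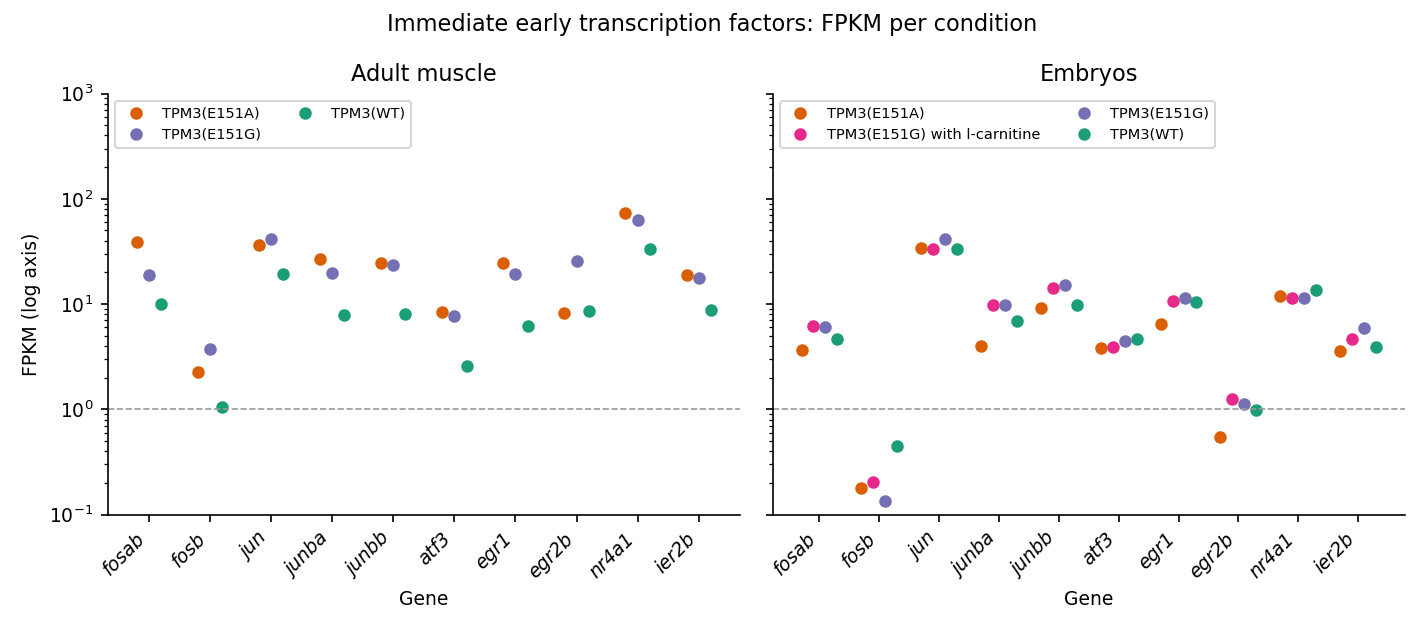
FPKM of the 10 genes on a log axis in adult muscle (left) and embryos (right), with 1 point per gene and condition; an adult point is the authors' value over 2 libraries and an embryo point is 1 library. The dashed line marks 1 FPKM. In adult muscle the TPM3(WT) point was the lowest for 9 of the 10 genes, against 34.9% of all genes. fosb lay below 1 FPKM in all 4 embryo conditions.

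In adult muscle the genes summed to 261.89 FPKM in TPM3(E151A) and 240.49 FPKM in TPM3(E151G), against 105.54 FPKM in TPM3(WT). TPM3(WT) had the lowest of the 3 values for 9 of the 10 genes, a place it took for 34.9% of the 17547 genes with at least 1 FPKM in adult muscle, and it had the highest for none of them, against 46.0% of all those genes. TPM3(E151A) was the highest for 7 of the 10 (16.8% of all genes), and TPM3(E151G) for fosb, jun and egr2b (37.2% of all genes). As a share of the summed FPKM, the genes made up 344.87 of every 1000000 FPKM in TPM3(E151A), 171.24 in TPM3(E151G) and 148.17 in TPM3(WT). Counting only genes outside the mitochondrial genome, these shares were 540.91 in TPM3(E151A), 326.71 in TPM3(E151G) and 199.93 in TPM3(WT), so TPM3(WT) stayed lowest by either denominator while the distance of TPM3(E151G) from it depended on the denominator.

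The Fos proteins cannot pair with each other and bind DNA as partners of Jun proteins in the AP-1 dimer. fosab, the zebrafish counterpart of FOS (chromosome 20, 46648590 to 46650720 in GRCz11, a locus that the tables share with AL929435.1), had 38.9 FPKM in TPM3(E151A) and 19.0 FPKM in TPM3(E151G) muscle, against 10.0 FPKM in TPM3(WT). Its log2 ratio of TPM3(E151A) to TPM3(WT) was 1.86 (3.89-fold on FPKM), close to that of egr1, and 2.77% of all genes compared had a larger one. TPM3(E151G) lay between the other genotypes at 1.90-fold over TPM3(WT). In embryos fosab had 3.68 FPKM in TPM3(E151A), 6.21 FPKM in TPM3(E151G) with l-carnitine, 6.12 FPKM in untreated TPM3(E151G) and 4.67 FPKM in TPM3(WT), so every embryo value was below the lowest adult one.

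fosb (chromosome 18, 36788761 to 36793723), a second Fos protein with a similar role, was the least abundant of the genes. It had 2.25 FPKM in TPM3(E151A) and 3.73 FPKM in TPM3(E151G) muscle, against 1.05 FPKM in TPM3(WT). The order of the mutants was thus the reverse of that of fosab, with TPM3(E151G) the higher one. In embryos it had 0.179 FPKM in TPM3(E151A), 0.204 FPKM in TPM3(E151G) with l-carnitine, 0.133 FPKM in untreated TPM3(E151G) and 0.449 FPKM in TPM3(WT), all under the minimum of 1 FPKM, and was not compared there.

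The Jun proteins form AP-1 with Fos proteins or with each other. jun (chromosome 20, 15653153 to 15655103), the founding member, had 36.3 FPKM in TPM3(E151A) and 41.1 FPKM in TPM3(E151G) muscle, against 19.4 FPKM in TPM3(WT). In embryos it had 34.1 FPKM in TPM3(E151A), 33.6 FPKM in TPM3(E151G) with l-carnitine, 41.5 FPKM in untreated TPM3(E151G) and 33.0 FPKM in TPM3(WT). jun was the most abundant of the genes in every embryo condition, and the only one with an embryo value as high as its value in mutant muscle.

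junba and junbb are the zebrafish copies of JUNB, a Jun protein that activates transcription less strongly than JUN at many sites. junba (chromosome 1, 51098614 to 51100171) had 26.7 FPKM in TPM3(E151A) and 19.9 FPKM in TPM3(E151G) muscle, against 7.85 FPKM in TPM3(WT). junbb (chromosome 3, 7768814 to 7770219) had 24.3 FPKM in TPM3(E151A) and 23.6 FPKM in TPM3(E151G) muscle, against 8.01 FPKM in TPM3(WT). Both copies were near 8 FPKM in TPM3(WT), and in TPM3(E151G) they differed little (19.9 and 23.6 FPKM). In embryos junba had 3.97 FPKM in TPM3(E151A), 9.74 FPKM in TPM3(E151G) with l-carnitine, 9.74 FPKM in untreated TPM3(E151G) and 6.97 FPKM in TPM3(WT). junbb had 9.09 FPKM in TPM3(E151A), 14.2 FPKM in TPM3(E151G) with l-carnitine, 15.2 FPKM in untreated TPM3(E151G) and 9.73 FPKM in TPM3(WT), and for both copies the TPM3(E151A) embryos were the lowest of the 4 conditions.

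ATF3 is a stress-induced factor that often represses its targets as a homodimer and also pairs with Jun proteins. atf3 (chromosome 20, 37891753 to 37897858) had 8.44 FPKM in TPM3(E151A) and 7.68 FPKM in TPM3(E151G) muscle, against 2.60 FPKM in TPM3(WT), which is 3.25-fold for TPM3(E151A) and 2.96-fold for TPM3(E151G). The mutants differed by less than 1 FPKM. In embryos atf3 stayed within a narrow range, with 3.84 FPKM in TPM3(E151A), 3.89 FPKM in TPM3(E151G) with l-carnitine, 4.43 FPKM in untreated TPM3(E151G) and 4.68 FPKM in TPM3(WT).

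EGR proteins are zinc finger factors that bind GC-rich sites and are switched on through SRF and its partners. egr1 (chromosome 14, 21035276 to 21039140), the best studied of them, had 24.5 FPKM in TPM3(E151A) and 19.2 FPKM in TPM3(E151G) muscle, against 6.14 FPKM in TPM3(WT). These are 4.0-fold for TPM3(E151A) and 3.12-fold for TPM3(E151G), and the log2 ratio of FPKM + 1 in TPM3(E151G) muscle was 1.50, with 8.1% of all genes compared above it. With that pseudocount it was the largest of the 10 genes, and with a pseudocount of 0.1 fosb was (1.74, against 1.63 for egr1). In embryos egr1 had 6.48 FPKM in TPM3(E151A), 10.7 FPKM in TPM3(E151G) with l-carnitine, 11.5 FPKM in untreated TPM3(E151G) and 10.5 FPKM in TPM3(WT), so that TPM3(E151A) alone was apart from the others.

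egr2b (chromosome 12, 8445994 to 8466435), known also as the hindbrain patterning gene krox20 and for its part in myelination, stood apart from the other 9 genes in TPM3(E151A) muscle. It had 8.28 FPKM in TPM3(E151A) and 25.9 FPKM in TPM3(E151G) muscle, against 8.62 FPKM in TPM3(WT). It was higher in TPM3(E151G) and near TPM3(WT) in TPM3(E151A), where its log2 ratio of -0.05 became 0.02 under median-of-ratios scaling. In embryos it was low, with 0.551 FPKM in TPM3(E151A), 1.25 FPKM in TPM3(E151G) with l-carnitine, 1.13 FPKM in untreated TPM3(E151G) and 0.996 FPKM in TPM3(WT).

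NR4A1 is an orphan nuclear receptor that is induced in muscle by exercise and by adrenergic signals. nr4a1 (chromosome 23, 32224791 to 32236279) was the most abundant of the genes in adult muscle, with 73.1 FPKM in TPM3(E151A) and 62.7 FPKM in TPM3(E151G), against 33.1 FPKM in TPM3(WT). In embryos it had 11.9 FPKM in TPM3(E151A), 11.4 FPKM in TPM3(E151G) with l-carnitine, 11.4 FPKM in untreated TPM3(E151G) and 13.5 FPKM in TPM3(WT). The embryo values of nr4a1 were thus all below the adult ones and close to each other, with TPM3(WT) the highest.

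ier2b encodes a short nuclear protein of the IER family that is induced by growth factors. It had 19.0 FPKM in TPM3(E151A) and 17.7 FPKM in TPM3(E151G) muscle, against 8.74 FPKM in TPM3(WT). In embryos it had 3.57 FPKM in TPM3(E151A), 4.68 FPKM in TPM3(E151G) with l-carnitine, 5.87 FPKM in untreated TPM3(E151G) and 3.92 FPKM in TPM3(WT). The tables give ier2b a locus of 148175 bases (chromosome 11, 30791617 to 30939791) that it shares with 4 other genes, so its values may hold fragments of those genes.

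**Figure D2:**
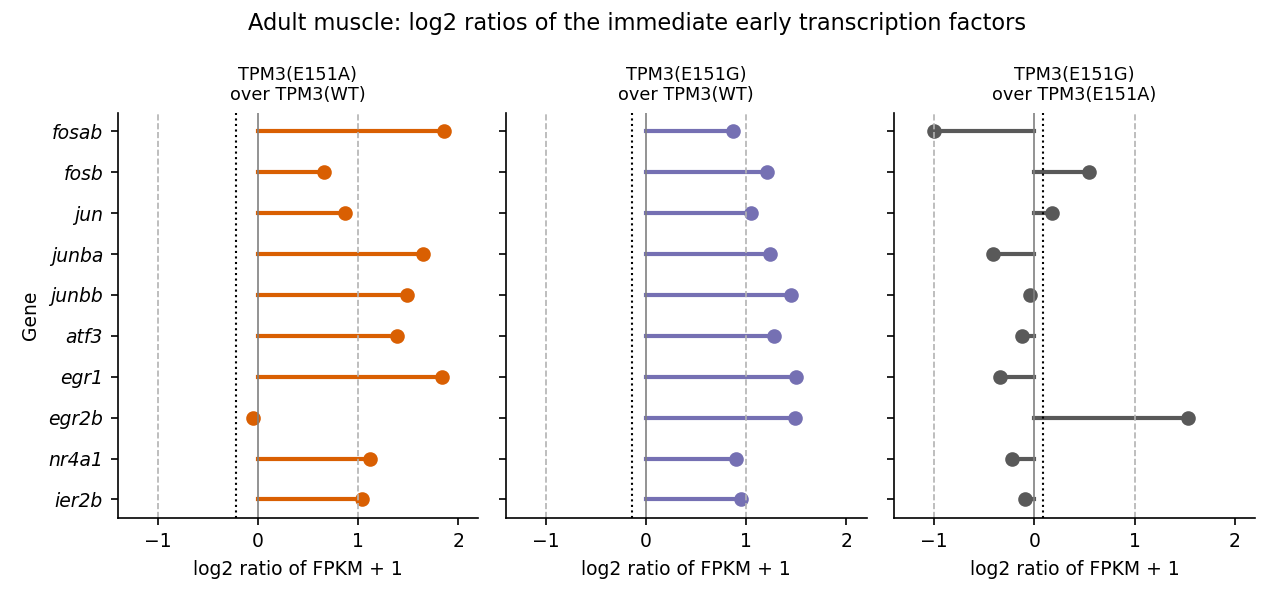
log2 ratio of FPKM + 1 for each gene in the 3 adult comparisons, with 1 point per gene and a line from 0. Dashed lines mark 2-fold and the dotted line marks the median of all genes compared. In both comparisons with TPM3(WT) 7 of the 10 points lay at or beyond 2-fold higher and none lower. Of all genes 9.9% were higher and 19.2% lower for TPM3(E151A), and 17.4% higher and 25.5% lower for TPM3(E151G). With FPKM sums made equal no point of TPM3(E151G) over TPM3(WT) passed 2-fold (5.07% of all genes were 2-fold higher), and fosab and nr4a1 changed sign. The median of the 10 genes was then 0.41, against -0.93 for all genes.

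In TPM3(E151A) muscle 7 of the 10 genes exceeded their TPM3(WT) value by 2-fold or more and none fell short of it by as much, against 9.9% of all 16865 genes compared higher and 19.2% lower. The 7 were fosab, junba, junbb, atf3, egr1, nr4a1 and ier2b, with log2 ratios between 1.04 for ier2b and 1.86 for fosab. jun (0.87), fosb (0.66) and egr2b (-0.05) did not reach 2-fold. The median log2 ratio of the 10 genes was 1.26, against -0.22 for all genes compared. Except for ier2b, which was at 0.96 with FPKM sums made equal (8.81% of all genes were 2-fold higher there), the 7 passed 2-fold under every scaling tried. In bulk tissue more transcripts per cell and more cells that carry them cannot be told apart.

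In TPM3(E151G) muscle 7 of the 10 genes likewise exceeded TPM3(WT) by 2-fold or more and none was lower, against 17.4% of all 16572 genes compared higher and 25.5% lower. They were fosb (1.21), jun (1.04), junba (1.24), junbb (1.45), atf3 (1.27), egr1 (1.50) and egr2b (1.48), while fosab (0.86), nr4a1 (0.90) and ier2b (0.94) came just short. The median of the 10 was 1.22, against -0.14 for all genes.

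The count past 2-fold in this comparison rested on the scaling. With FPKM sums made equal the median of all genes moved by -0.78, no gene of the 10 was 2-fold higher (5.07% of all genes were), and fosab (-0.05) and nr4a1 (-0.06) fell to the other side of 0. The median of the 10 was then 0.41, against -0.93 for all genes. Of the 10, 8 were above 0, against 24.7% of all genes. With sums made equal outside the mitochondrial genome the median of all genes moved by -0.38, and junbb (1.01), egr1 (1.06) and egr2b (1.04) were 2-fold higher, against 9.88% of all genes. The median of the 10 was then 0.84, against -0.52 for all genes. Each scaling moves all genes of a condition together, so the distance between such medians could hardly change.

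**Figure D3:**
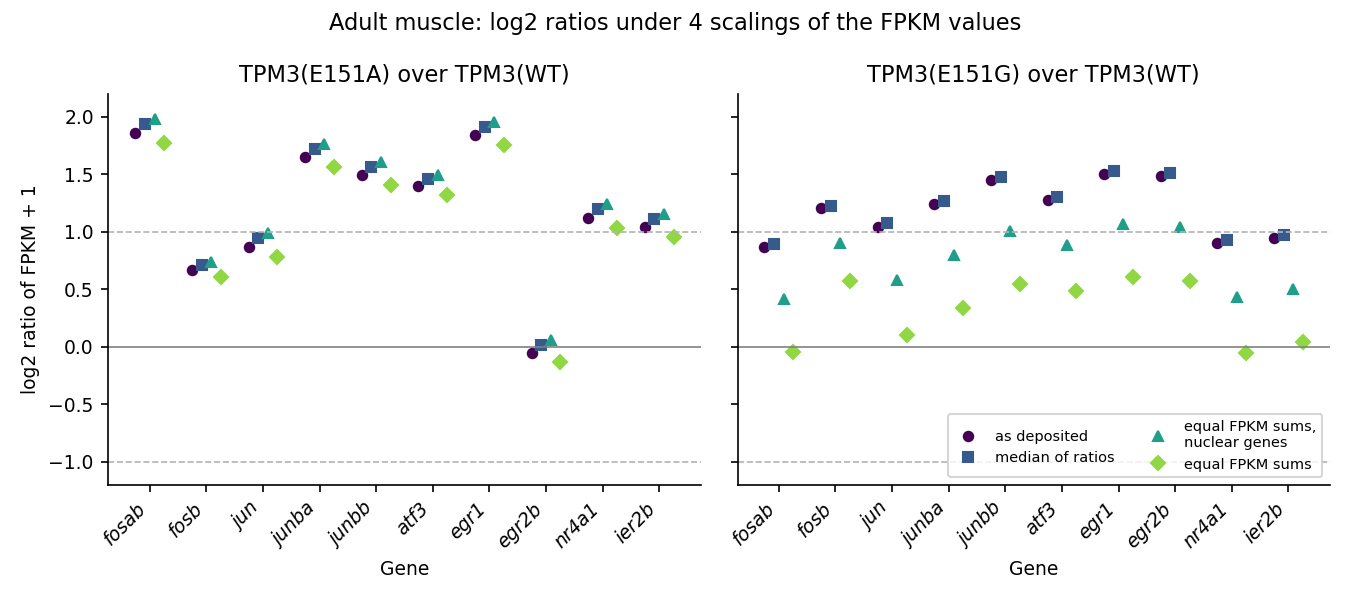
log2 ratio of FPKM + 1 of each gene in TPM3(E151A) (left) and TPM3(E151G) (right) over TPM3(WT) muscle under 4 scalings of the deposited values; dashed lines mark 2-fold. The 4 symbols of a gene stayed close together for TPM3(E151A), whereas for TPM3(E151G) equal FPKM sums put all 10 genes below 2-fold higher, with fosab at -0.05 and nr4a1 at -0.06. Of all genes 5.07% were 2-fold higher for TPM3(E151G) under that scaling.

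Between the mutants, egr2b alone was 2-fold or more higher in TPM3(E151G) than in TPM3(E151A), at 25.9 against 8.28 FPKM and a log2 ratio of 1.53, and none was lower, against 10.1% of all 16715 genes higher and 9.88% lower. fosab, at 19.0 against 38.9 FPKM, had a log2 ratio of -0.997 and was just inside 2-fold, and passed it under median-of-ratios scaling (-1.04, where 10.3% of all genes were 2-fold lower). The other 8 genes lay between -0.41 for junba and 0.54 for fosb. With FPKM sums made equal egr2b was no longer 2-fold higher (0.71), and fosab, junba, egr1 and nr4a1 were 2-fold lower (29.5% of all genes were), while fosb (-0.12) and jun (-0.69) changed sign.

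Summed FPKM of other cell type markers, as deposited, also differed between the adult conditions. The 8 leukocyte markers summed to 621 FPKM in TPM3(E151A) and 860 FPKM in TPM3(E151G), against 263 FPKM in TPM3(WT), mostly from lyz and cd74a, with ptprc listed at 0 in TPM3(E151G) and TPM3(WT). mpx had 8.96 FPKM in TPM3(E151A) and 8.03 FPKM in TPM3(E151G), against 7.98 FPKM in TPM3(WT). mpeg1.1 had 4.61 and 3.28 FPKM, against 3.84 FPKM. Of the leukocyte markers compared, 8 of 8 had log2 ratios above 0 in TPM3(E151A) and 6 of 7 in TPM3(E151G). The 5 erythrocyte markers that could be matched summed to 1602 and 636 FPKM in TPM3(E151A) and TPM3(E151G), against 190 FPKM in TPM3(WT), with hbae1.1 listed at 0 in TPM3(E151G) and TPM3(WT) and hbbe1.1 in TPM3(E151G). All 6 oocyte markers were 2-fold or more lower in both mutants, against 19.2% of all genes in TPM3(E151A) and 25.5% in TPM3(E151G). All 5 testis markers were 2-fold or more higher in TPM3(E151A), against 9.9% of all genes. Fibroblast markers summed to 129 and 294 FPKM in TPM3(E151A) and TPM3(E151G), against 157 FPKM in TPM3(WT), endothelial markers to 43.1 and 74.9 FPKM, against 35.0 FPKM, and exocrine pancreas markers to 692 and 1270 FPKM, against 247 FPKM. Liver markers summed to 34.9 and 54.9 FPKM in TPM3(E151A) and TPM3(E151G), against 3.21 FPKM in TPM3(WT), neuronal markers to 41.1 and 102 FPKM, against 32.2 FPKM, and skin markers to 560 and 278 FPKM, against 1065 FPKM. snap25a made up most of the neuronal sum in TPM3(E151G) (90.7 FPKM). In that comparison elavl3 (-0.16) was below 0 and 3 of 4 neuronal markers were above 0. In TPM3(E151A) snap25a alone raised the neuronal sum (36.9 against 25.7 FPKM), while elavl3 (-0.45), syt1a (-0.52) and gap43 (-0.25) were below 0. The skin sum fell there mostly through epcam (69.0 against 583 FPKM), with krt4 at 192 against 175 FPKM and krt5 at 298 against 306 FPKM. Of the 5 fibroblast markers 3 had log2 ratios above 0 in TPM3(E151A), though the sum of the 5 was lower. With FPKM sums made equal, list medians in TPM3(E151G) were 0.06 for fibroblasts, 0.16 for endothelium, -0.03 for neurons and 0.33 for leukocytes. The median of all genes was then -0.93. In these lists lyz alone was then 2-fold higher, and no erythrocyte marker was, against 5.07% of all genes. Liver (3 of 4) and exocrine pancreas markers (4 of 4) were 2-fold higher under that scaling. The part of these cell types in the values of the immediate early genes was not tested.

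Relatives of the 10 genes were looked at through lists of known early genes, whose counts stand against the shares of all genes in the same comparisons (9.9% higher and 19.2% lower in TPM3(E151A), 17.4% higher and 25.5% lower in TPM3(E151G)). With FPKM sums made equal these shares were 8.81% and 21.7% in TPM3(E151A), and 5.07% and 47.5% in TPM3(E151G). The median of all genes in TPM3(E151G) was then -0.93. Among other AP-1 genes, fosl1b (1.42), jdp2b (1.38), jund (1.17) and fosl2 (1.07) were 2-fold higher in TPM3(E151A) than in TPM3(WT) and batf (-1.35) was lower, of 9 compared. In TPM3(E151G) fosl2 (1.64), jund (1.40), jdp2b (1.15) and fosl1a (1.05) were higher and batf (-1.89) and batf3 (-1.56) lower, of 9 compared. Values of fosl1b and fosl1a were low. fosl1b had 2.44 FPKM in TPM3(E151A) against 0.29 FPKM in TPM3(WT), and fosl1a 2.27 FPKM in TPM3(E151G) against 0.57 FPKM. None of the 9 was 2-fold higher in TPM3(E151G) with FPKM sums made equal, and the list median of 0.83 became 0.39. fosl2 is a Fos protein and jund a Jun protein that is present in most resting cells, whereas batf and batf3 are AP-1 proteins of immune cells. jund had 22.1 FPKM in TPM3(E151A) and 26.2 FPKM in TPM3(E151G) muscle, against 9.30 FPKM in TPM3(WT).

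Of the nearest relatives in the other families, nr4a3 was higher in both mutants, with 11.9 FPKM in TPM3(E151A) and 18.9 FPKM in TPM3(E151G), against 5.39 FPKM in TPM3(WT), while nr4a2b passed 2-fold in TPM3(E151G) (1.53) and not in TPM3(E151A) (0.54). ier2a had 13.7 FPKM in TPM3(E151A) and 14.9 FPKM in TPM3(E151G), against 4.72 FPKM in TPM3(WT), and ier5 had 48.8 FPKM in TPM3(E151A) and 47.3 FPKM in TPM3(E151G), against 14.6 FPKM in TPM3(WT), while ier5l was within 2-fold. None of these relatives was 2-fold higher in TPM3(E151G) with FPKM sums made equal, against 5.07% of all genes. In TPM3(E151A) ier2a and ier5 stayed 2-fold higher, against 8.81% of all genes. Of the EGR relatives and the NAB proteins that hold EGR factors back, egr3 alone reached 1 FPKM in adult muscle and was within 2-fold in both comparisons with TPM3(WT).

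Many genes known to end early responses were also higher in mutant muscle. Of 24 feedback genes compared, 10 were 2-fold higher and 2 lower in TPM3(E151A), and 12 were higher and 1 lower in TPM3(E151G), with median log2 ratios of 0.73 for TPM3(E151A) and 1.004 for TPM3(E151G). Among all genes 9.9% were higher and 19.2% lower in TPM3(E151A), and 17.4% higher and 25.5% lower in TPM3(E151G). With FPKM sums made equal the TPM3(E151G) median was 0.08, with 3 of 24 higher and 3 lower, while TPM3(E151A) had 9 higher and 2 lower. All genes then had a median of -0.93 in TPM3(E151G), with 5.07% higher and 47.5% lower. In TPM3(E151A) 8.81% of all genes were then higher and 21.7% lower. dusp6, a phosphatase that inactivates ERK, had 59.3 FPKM in TPM3(E151A) and 88.5 FPKM in TPM3(E151G), against 24.4 FPKM in TPM3(WT). gadd45ba, a stress-induced growth regulator, had 268 FPKM in TPM3(E151A) and 443 FPKM in TPM3(E151G), against 96.5 FPKM in TPM3(WT). dusp2 (1.54) and dusp5 (1.27) were among the largest ratios in TPM3(E151A), and btg1 (2.15), nfkbiaa (2.00) and sik1 (1.95) in TPM3(E151G). The members lower in TPM3(E151A) were dusp4 (-1.67) and zfp36l1a (-1.11), and zfp36l1a (-1.24) was the lower one in TPM3(E151G).

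Genes that act before the 10 were taken as a further list. Of 20 kinases and factors upstream of early genes, none was 2-fold higher in either mutant, with median log2 ratios of -0.15 for TPM3(E151A) and -0.05 for TPM3(E151G), against -0.22 and -0.14 for all genes. The TPM3(E151G) median was -0.79 with FPKM sums made equal, against -0.93 for all genes. Of the 20, 8 were then lower, against 47.5% of all genes. As deposited, 3 were 2-fold lower in TPM3(E151A), among them mapk14a (-1.03) and rps6ka3a (-1.08), against 19.2% of all genes. In TPM3(E151G) 2 were lower, among them mapk3 (-1.09), against 25.5% of all genes. srfa, 1 of the SRF genes of the list, had 1.34 FPKM in TPM3(E151A) and 0.97 FPKM in TPM3(E151G), against 1.60 FPKM in TPM3(WT). The other, srfb, had 1.47 FPKM in TPM3(E151A) and 1.75 FPKM in TPM3(E151G), against 1.95 FPKM in TPM3(WT). The mutants were thus in opposite order for these genes. These are transcript levels and say nothing of kinase activity.

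Of other early transcription regulators 2 of 17 were 2-fold higher in TPM3(E151A), cebpb (1.54) and klf11b (1.08), a share near the 9.9% of all genes, and none was lower. In TPM3(E151G) 7 of 16 were higher, led by csrnp1a (2.56), cebpd (2.21), klf11b (2.02), klf9 (1.77) and cebpb (1.62), and klf6b (-1.24) was lower, against 17.4% of all genes higher and 25.5% lower. With FPKM sums made equal 3 of 16 were higher (klf11b, cebpd and csrnp1a) and 3 lower, against 5.07% of all genes higher and 47.5% lower. The list median was 0.10 for TPM3(E151A) and 0.49 for TPM3(E151G). The second of these became -0.40 under the same scaling, against -0.93 for all genes. Between the mutants, csrnp1a (1.85), klf9 (1.66), cebpd (1.63) and per1a (1.50) were 2-fold higher in TPM3(E151G) than in TPM3(E151A), as egr2b was, against 10.1% of all genes. With FPKM sums made equal klf9 (0.80), cebpd (0.75), per1a (0.90) and egr2b (0.71) were no longer 2-fold higher, and csrnp1a (1.02) was. The mammalian counterparts of klf9 and per1a are known as glucocorticoid-induced genes.

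Early secreted and AP-1 associated genes were compared for 9 members in both cases. In TPM3(E151A) ccn1 (1.58) and il1b (1.0, at 2.67 against 0.83 FPKM) were 2-fold higher and 0 were lower. Among all genes 9.9% were higher and 19.2% lower. In TPM3(E151G) 5 were higher, among them ccn1 (2.01), ctgfa (1.30), mmp9 (1.11) and mmp13a (1.01), against 17.4% of all genes. ptgs2a (-1.50) and hbegfa (-1.12) were lower there, against 25.5% of all genes. ccn1 alone stayed 2-fold higher in each mutant with FPKM sums made equal. ccn1, a matrix protein that responds to serum and stretch, had 43.0 FPKM in TPM3(E151A) and 58.6 FPKM in TPM3(E151G), against 13.8 FPKM in TPM3(WT). Heat shock genes, which report protein stress, had 3 of 8 higher in TPM3(E151A), hsp90aa1.2 (1.72), hsp70l (1.30) and hspb1 (1.11). In TPM3(E151G) 6 of 9 were higher, among them hsp70l (2.27), hsp70.2 (1.65) and hsp70.3 (1.27), and dnajb1b (-1.71) was lower, against 17.4% of all genes higher and 25.5% lower. The hsp70 genes named were low. In TPM3(E151G) hsp70l had 9.25, hsp70.2 3.21 and hsp70.3 2.41 FPKM, against 1.13, 0.34 and 0.41 FPKM in TPM3(WT). Of the 9 heat shock genes, 2 were higher in TPM3(E151G) with FPKM sums made equal, hsp70l and hsp70.2, and 2 lower, and the list median of 1.19 became 0.27. Of all genes 5.07% were then higher and 47.5% lower, with a median of -0.93. hspa8, the constitutive member and by far the most abundant, had 512 and 543 FPKM in TPM3(E151A) and TPM3(E151G), against 763 FPKM in TPM3(WT).

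**Figure D4:**
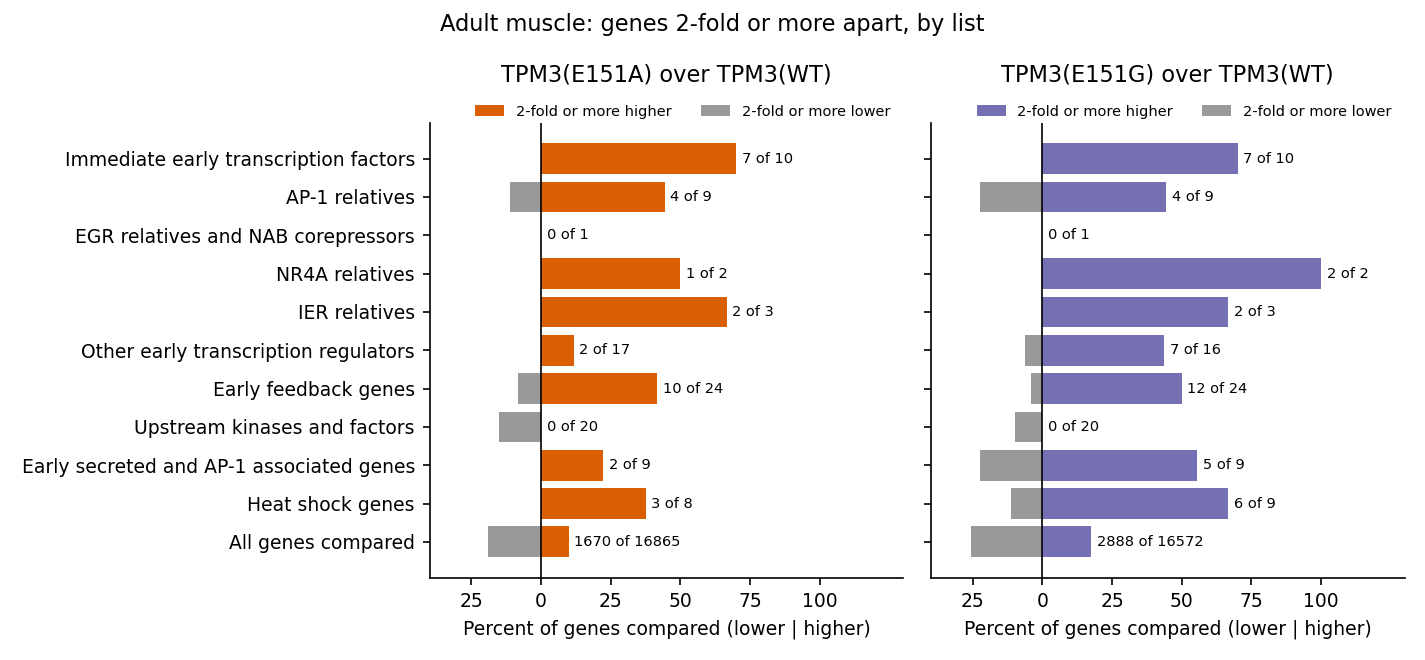
Percent of the genes compared that were 2-fold or more higher (coloured, to the right) or lower (grey, to the left) in TPM3(E151A) (left panel) and TPM3(E151G) (right panel) than in TPM3(WT) muscle, for the 10 immediate early transcription factors, 9 related lists and all genes; the number beside each bar is the count of higher genes of those compared. The transcription factors had 7 of 10 higher in both panels, and the upstream kinases and factors had 0 of 20. Of all genes 9.9% were higher for TPM3(E151A) and 17.4% for TPM3(E151G). With FPKM sums made equal 6 of the 10 were higher for TPM3(E151A) and 0 for TPM3(E151G). Of all genes 8.81% were then higher for TPM3(E151A) and 5.07% for TPM3(E151G).

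In embryos the 10 genes differed far less than in adult muscle, and so did genes at large. That none of the genes was 2-fold apart in the embryo comparisons is thus near the shares of all genes given beside each count. In TPM3(E151A) embryos none of the 8 genes compared was 2-fold apart from TPM3(WT), against 0.99% of all 17577 genes higher and 0.996% lower. The log2 ratios ran from -0.68 for junba and -0.63 for egr1 to 0.05 for jun, the only one above 0 (7 of 8 were below 0, against 47.4% of all genes), and jun fell below 0 with FPKM sums made equal (-0.14). Their median was -0.21, against 0.02 for all genes. With FPKM sums made equal none of the 8 was above 0, against 33.1% of all genes. The TPM3(E151A) library had the lowest of the 4 values for 7 of the 9 genes that reached 1 FPKM in any embryo condition, a place it took for 25.3% of 18116 genes, and the highest for none (29.2% of all genes).

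In untreated TPM3(E151G) embryos none of the 9 genes compared was 2-fold apart from TPM3(WT), against 0.637% of all 17581 genes higher and 1.79% lower. 7 genes had log2 ratios above 0 (54.0% of all genes did), led by junbb (0.60), ier2b (0.48) and junba (0.43), and nr4a1 (-0.23) and atf3 (-0.07) were below. With FPKM sums made equal the median of all genes moved by -0.30, and jun (-0.03), egr1 (-0.21) and egr2b (-0.09) changed sign. Of the 9 genes 4 were then above 0, against 20.6% of all genes. The untreated TPM3(E151G) library had the highest value for 5 of the 9 genes (30.5% of all genes).

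**Figure D5:**
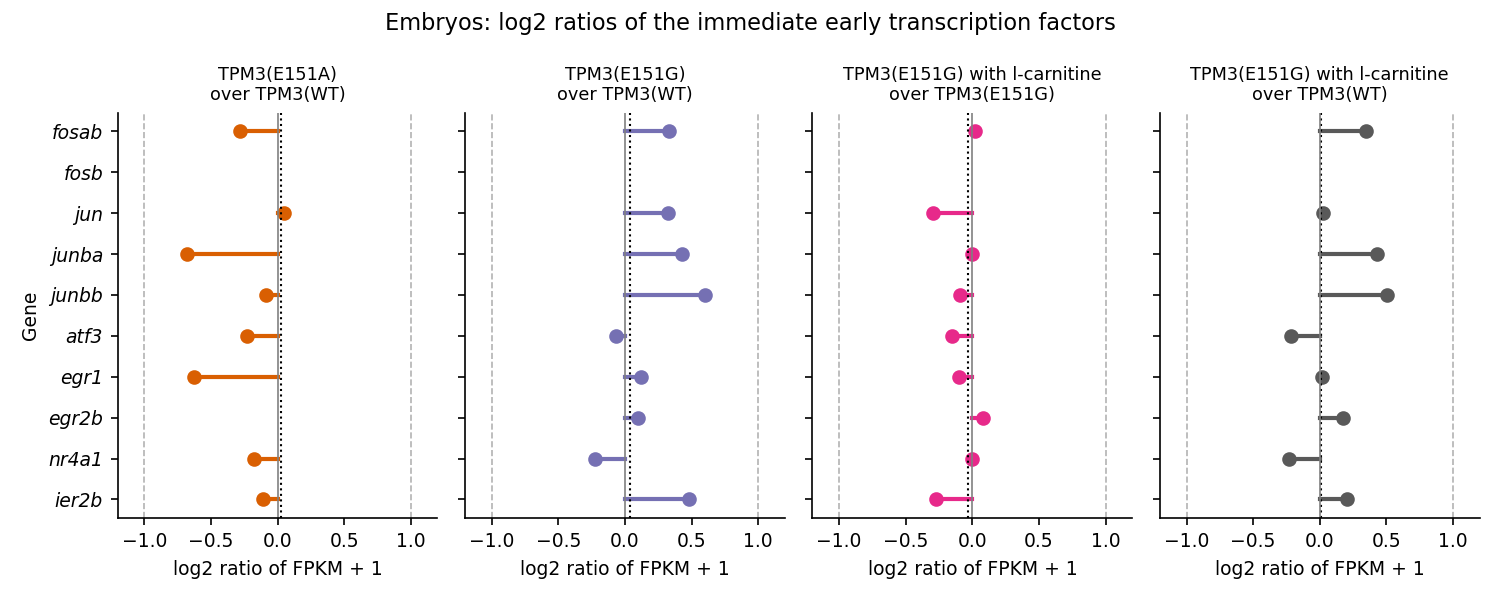
log2 ratio of FPKM + 1 for each gene in the 4 embryo comparisons, each between 2 single libraries; dashed lines mark 2-fold, the dotted line marks the median of all genes compared, and genes below 1 FPKM in both libraries have no point. No point reached 2-fold, and in these comparisons at most 2.55% of all genes were higher and 1.79% lower. In TPM3(E151A) over TPM3(WT) 7 of 8 lay below 0 (47.4% of all genes did). With equal FPKM sums all 8 did, and 33.1% of all genes lay above 0. In untreated TPM3(E151G) over TPM3(WT) 7 of 9 lay above 0 (54.0% of all genes did). With equal FPKM sums 4 of 9 did, against 20.6% of all genes.

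l-Carnitine treated TPM3(E151G) embryos had values close to those of untreated TPM3(E151G) embryos. None of the 9 genes compared was 2-fold apart, against 2.55% of all 17585 genes higher and 0.199% lower. The log2 ratios lay between -0.30 for jun and 0.08 for egr2b, and junba and nr4a1 were at -0.00. Their median was -0.09, against -0.04 for all genes, and both medians were above 0 with FPKM sums made equal (0.18 and 0.20). jun, at 33.6 FPKM treated and 41.5 FPKM untreated, and ier2b, at 4.68 FPKM treated and 5.87 FPKM untreated, had the largest log2 ratios by size as deposited, but with FPKM sums made equal jun (-0.02) and ier2b (-0.03) had the smallest of the 9, and fosab (0.27) the largest.

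Against TPM3(WT), the treated TPM3(E151G) embryos had none of 9 genes 2-fold apart, with 1.97% of all 17731 genes higher and 0.384% lower. junbb (0.50), junba (0.43) and fosab (0.35) had the largest ratios, and nr4a1 (-0.23) and atf3 (-0.22) lay below 0, the same places they took without treatment. jun and egr1 were at 0.02 each and turned below 0 with FPKM sums made equal (-0.05 each). The treated and untreated libraries are both set against the same TPM3(WT) library. Between the treated and untreated TPM3(E151G) libraries, by contrast, 5 of 5 liver markers were 2-fold higher with treatment, with a median log2 ratio of 1.68. So were 2 of 4 exocrine pancreas markers, against 2.55% of all genes in that comparison. Their part in the values of the 10 genes was not tested.

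In the related lists few embryo values were 2-fold apart. In TPM3(E151A) hsp90aa1.1 (1.01), and in untreated TPM3(E151G) hsp70.2 (1.08), were higher than in TPM3(WT), both of them heat shock genes. With l-carnitine klf9 (1.06) was higher than in untreated TPM3(E151G), at 2.37 FPKM treated and 0.610 FPKM untreated. No other gene of the 9 lists passed 2-fold in the 4 embryo comparisons.

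Across the 7 conditions some of the genes kept closer company than others. Likeness was taken as the distance between log2(FPKM + 1) values centred within adults and within embryos, where 0 is an identical pattern. The nearest pair was atf3 and nr4a1 (0.316), followed by ier2b and jun (0.335) and by egr1 and junba (0.441). The farthest was egr2b and fosab (1.87). These 7 points include single libraries and combined ones, and the distances carry no test.

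Among the 11408 genes with at least 1 FPKM in every condition, the nearest to the median pattern of the 10 genes were stmn1b (0.160), lect2l (0.178), kctd7 (0.185), dnajb4 (0.190) and atp1a1b (0.191). Nearest to fosab were nt5c2l1 (0.235), fam228a (0.267), CR735126.1 (0.331), nrgna (0.376) and lmo2 (0.404). Nearest to egr1 were tnni2a.2 (0.290), tal1 (0.319), apoda.1 (0.347), si:dkey-56e3.2 (0.351) and prkab1a (0.364). The neighbours of nr4a1 were closer than those of fosab or egr1, but its pattern was also flatter. Centred adult values ran from -0.67 to 0.45 for nr4a1, -0.91 to 0.95 for fosab and -1.11 to 0.73 for egr1. Distances were not scaled for this, so they do not show which gene had the more alike neighbours. Nearest to nr4a1 were spra (0.128), lrrc8da (0.193), timp2b (0.198), si:dkey-204f11.64 (0.199) and zgc:172270 (0.201). nt5c2l1, for example, had 70.6 FPKM in TPM3(E151A) and 38.3 FPKM in TPM3(E151G) muscle, against 18.7 FPKM in TPM3(WT), the order seen for fosab. Of the genes named, lmo2 (rank 5 for fosab) and tal1 (rank 2 for egr1) are known regulators of blood cell formation. Whether the neighbours share a function was not tested.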

How the data were processed

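RNA was sequenced from adult muscle (6 libraries) and embryos (4 libraries). Per the labels and the methods of the study, ribosomal RNA was depleted, reads were trimmed with Trimmomatic 0.36 and HISAT2 aligned them to the GRCz11 genome with annotation of Ensembl 99. bcl2fastq 2.20, DESeq2 1.22.2 and featureCounts 1.6.3 also stand in the submitters' processing notes, with no role given. The authors deposited FPKM per gene and condition, with the 2 adult libraries of a genotype combined, and 1e-05 standing for 0. Which tool computed the FPKM is not stated by any source used here. Columns of the authors' own fold changes, p-values and q-values were not used, nor were the transcript tables.

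log2 ratios of FPKM + 1 were computed with Python 3.11.15 and pandas 2.3.3, within the table of each comparison, for genes with at least 1 FPKM in 1 or both conditions. The pseudocount of 1 makes the ratios of low genes smaller. Figures were drawn with matplotlib 3.10.9. Since a condition has 1 value, no model was fitted, and precision is unknown because depth was not given. 6 alternatives were tried: a pseudocount of 0.1, no FPKM minimum, a minimum of 5 FPKM, median-of-ratios scaling, equal FPKM sums, and equal FPKM sums outside the mitochondrial genome. The script was tested on simulated data. The 10 genes and the 20 lists, 11 of them cell type markers, were chosen with earlier results of these data known. All 10 genes were named. Of each list, up to 5 genes per comparison with the largest absolute ratios were taken. fosl1a, zfp36l1a, klf6b, mmp9, mmp13a, srfa, srfb and hspa8 were named after their values were seen. klf10, zfp36, mrtfba, ccn2a and zp3 were not matched by name, and socs3a and hbba1 matched more than 1 gene. Promoter motifs were not searched. Some genes of the lists are counted but not reported here by name.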

Additional observations from a re-analysis of the deposited data

Results flagged for a closer look

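8 values were flagged. In each, a gene was 2-fold or more higher in adult mutant muscle than in TPM3(WT) muscle. The same gene had a log2 ratio below 0 in the embryos of that line. Of all genes, 9.9% were higher in TPM3(E151A) muscle and 47.4% were below 0 in TPM3(E151A) embryos. For TPM3(E151G), 17.4% were higher in muscle. In embryos of that line 54.0% were above 0, the side that the rule leaves out. How many of all genes met both parts of the rule was not counted. By the rule itself, each adult ratio exceeds its embryo ratio by more than 2-fold. For TPM3(E151A) over TPM3(WT) the adult ratio exceeded the embryo ratio by 2.47 (log2) for egr1, 2.33 for junba, 2.14 for fosab, 1.63 for atf3 (1.39 in adults and -0.23 in embryos), 1.58 for junbb, 1.30 for nr4a1 and 1.15 for ier2b. For TPM3(E151G) over TPM3(WT) the difference was 1.34 for atf3 (1.27 in adults and -0.07 in embryos). That adult ratio was 0.48 with equal FPKM sums and 0.89 with equal sums outside the mitochondrial genome, both short of 2-fold. The adult ratio of ier2b in TPM3(E151A) was 0.96 with equal FPKM sums. The difference between the stages was not tested, since an adult value combines 2 libraries and an embryo value is 1 library. Adult samples were muscle and embryo samples whole embryos by their labels, while the study's text speaks of muscle from embryos; stage and tissue cannot be told apart.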

How the results depend on the processing

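The count of the 10 genes 2-fold or more apart in TPM3(E151A) over TPM3(WT) muscle stayed within 6 and 8 under all 6 alternatives. The changes of the FPKM minimum leave each ratio as it is and only alter which genes are compared. In the 4 embryo comparisons the count was 0 under every alternative, where at most 6.06% of all genes were higher and 5.63% lower. The genes counted for TPM3(E151A) were all higher, against 6.3% (no FPKM minimum) to 14.7% (pseudocount of 0.1) of all genes. For TPM3(E151G) over TPM3(WT) muscle the count was 7 as deposited, 0 with equal FPKM sums and 3 with equal FPKM sums outside the mitochondrial genome. All were higher, against 17.4%, 5.07% and 9.88% of all genes. In the same order, the median of the 10 exceeded that of all genes by 1.365, 1.335 and 1.367 (log2). These scalings multiply every gene of a condition by the same factor, so this gap could hardly change and is no check on the result. For TPM3(E151G) over TPM3(E151A) the count was 1 higher as deposited, against 10.1% of all genes higher and 9.88% lower. With a pseudocount of 0.1 it was 2, 1 higher and 1 lower, against 14.6% and 15% of all genes. Under median-of-ratios scaling it was also 2, 1 higher and 1 lower, against 9.44% and 10.3%. With equal FPKM sums it was 4, all lower, against 29.5% of all genes lower. With equal FPKM sums outside the mitochondrial genome it was again 1, but a lower gene, fosab (-1.58), with egr2b at 0.97. Of all genes 20.6% were lower there and 3.02% higher. Which scaling fits these libraries was not tested. Of 65 values recomputed under each of these, equal FPKM sums moved 28 and equal sums outside the mitochondrial genome 20. No paired analysis was possible because each genotype has 1 combined value; for the same reason leaving out a replicate was not run. The read depth was not given, so differences between low values such as those of fosb in embryos cannot be judged.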
